A study of Mus musculus with 12 samples.

Results

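Stag3, M1ap, Gpat2 and Txndc2 are 4 genes known from meiosis and from spermatids, and all 4 were among the 5764 genes of the expression table used here. They were chosen by name from genes whose levels in the food-exposed and the control group were already known, so their levels below are a description and carry no test. RNA bound to tagged ribosomes was sequenced from the arcuate part of the hypothalamus of POMCRiboTag mice. In this line an HA-tagged ribosomal protein is made in the lineage of neurons that express pro-opiomelanocortin (POMC). All mice were fasted for 16 h and had 1 h of habituation. The NEO group (6 libraries) was then shown a caged nonedible object of wood, and the SENS group (6 libraries) was shown caged chow that could be seen and smelled but not eaten. The exposure lasted 10 min in SENS and, by the design text, also in NEO, at about zeitgeber time 6 h. Both groups carried the same genotype, were housed in pairs or triplets and went through the same pull-down with an antibody against HA. The labels give no strain, age or sex. Nor do they tie a library to its own animal, so the spread between libraries, which is all that p-values measure here, may be partly technical. The question asked of these genes was how their levels in the pulled-down RNA differed after food was sensed.

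Meiosis is the division in which chromosomes pair, exchange segments and separate to give haploid cells. Cohesin, a protein ring that holds sister chromatids together, exists in a meiotic form, and Stag3 encodes its meiosis-specific STAG subunit. M1ap encodes a protein needed in male meiosis, where it acts with the Shoc1, Tex11 and Spo16 proteins in crossover formation. Gpat2 belongs to the enzymes that add the first fatty acid to glycerol 3-phosphate. In the testis it is also known as a factor in making piRNAs, the small RNAs that silence transposons in germ cells. Txndc2 encodes a sperm thioredoxin that sits in the fibrous sheath of the sperm tail. POMC neurons neither divide nor enter meiosis.

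The table held reads of genes of low abundance. The reads behind it came to between 6901 and 11139 per library in NEO (51054 in all) and to between 8619 and 18299 in SENS (78626 in all). Levels below are in CPM, the authors' counts scaled to the sum of the table, so 3 reads, the limit that a count of 0 allows, corresponded to between 269 and 435 CPM in a NEO library and between 164 and 348 CPM in a SENS library. Over a whole group the limit was 58.8 CPM for NEO and 38.2 CPM for SENS. Limits and intervals cover counting error only, since the reads carried no molecular identifiers. The defining markers of POMC neurons and of AgRP neurons, ependymal cells, astrocytes, oligodendrocytes, endothelium and choroid plexus are not analysed here, so the label "POMC neurons" was not checked. In such pooled tissue a lower share of cells of one type and less RNA per cell cannot be told apart.

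One library stood apart in genes of spermatids. SENS 1 held 241 of the 369 reads (65.3%) of 20 spermatid and sperm tail genes other than Txndc2, and 17 of these 20 genes were above 0 there. Among them were the protamine gene Prm2 (65 reads in SENS 1 and 2 in the other 11 libraries) and the transition protein genes Tnp1 (59 and 1) and Tnp2 (35 and 0), whose products replace histones in sperm heads. The sperm lactate dehydrogenase gene Ldhc had 33 reads in SENS 1 and 0 elsewhere. The reads of Prm2 (2) and Tnp1 (1) outside SENS 1 were all in NEO 2. The pooled ratios of the members and the counts over the pathway lists are also given without SENS 1. The correlations below include it.

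The promoters of the members are shown to set out what their start sites share. Each line gives 110 bases in the direction of transcription, 100 before and 10 after the annotated start site, from RefSeq for GRCm38.p6. Capitals mark GCGGGA or its reverse complement TCCCGC, the core that E2F transcription factors bind.

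Stag3, chr5:138280409-138280518, plus strand: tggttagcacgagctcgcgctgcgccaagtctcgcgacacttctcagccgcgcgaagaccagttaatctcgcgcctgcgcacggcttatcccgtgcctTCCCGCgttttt

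M1ap, chr6:82946822-82946931, plus strand: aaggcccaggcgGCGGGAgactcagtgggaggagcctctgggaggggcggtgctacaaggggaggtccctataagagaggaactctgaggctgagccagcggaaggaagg

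Gpat2, chr2:127425099-127425208, plus strand: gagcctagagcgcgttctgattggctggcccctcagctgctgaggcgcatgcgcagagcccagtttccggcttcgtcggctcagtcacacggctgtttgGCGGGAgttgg

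Txndc2, chr17:65642195-65642304, minus strand: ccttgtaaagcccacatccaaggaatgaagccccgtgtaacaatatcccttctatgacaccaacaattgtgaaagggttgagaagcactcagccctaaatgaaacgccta

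Windows of 300 bases (250 before and 50 after the start site) were searched on both strands. The Stag3 and Txndc2 windows lie inside the annotated spans of these genes. GCGGGA was found in the windows of 3 of the 4 genes, Stag3, M1ap and Gpat2, and in neither of the 2 windows annotated for Txndc2. At least 1 window with this motif was found for 22.1% of 27025 genes. The match began 2 bases before the start site in Stag3, 1 base before it in Gpat2 and 88 bases before it in M1ap. Of the other motifs searched, the E-box CACGTG (8.09% of genes) was present once, in Stag3, 170 bases before the start site. Neither the cyclic AMP response element TGACGTCA (2.03% of genes) nor the MYB motif AACNGTT (5.01%) was present in any of the members' windows. These are matches of letters, not measured binding.

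The Stag3 window was rich in CG dinucleotides, with 30 in 300 bases against a median of 7 over all windows. M1ap had 11 and Gpat2 had 15. The 2 Txndc2 windows had 4 and 0, and their GC content was 48.3%, against 61.3% for Stag3 and M1ap, 59.7% for Gpat2 and a median of 52.7%. Txndc2, the spermatid gene of the set, thus had the promoters with the fewest CG dinucleotides among the 4 genes.

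**Figure D1:**
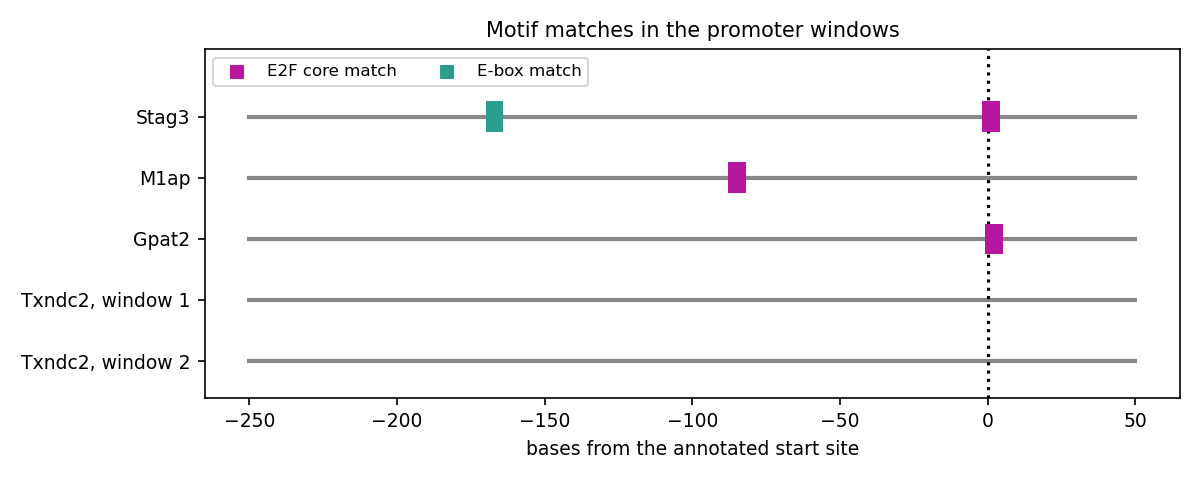
Positions of motif matches in the 300-base promoter windows of the 4 genes, with bases from the annotated start site (dotted line) on the horizontal axis and 1 row per window. The E2F core lies at the start site in Stag3 and Gpat2 and 88 bases before it in M1ap, and the Txndc2 windows hold no match.

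The 4 genes lie on 4 chromosomes and do not neighbour each other. In the RefSeq annotation of GRCm38.p6, Stag3 spans chromosome 5, 138272514 to 138312397, M1ap chromosome 6, 82946908 to 83030309, Gpat2 chromosome 2, 127425154 to 127436093, and Txndc2 chromosome 17, 65637505 to 65648874. Stag3 overlaps the protein-coding genes Gal3st4 and Gpc2 in its span, M1ap overlaps the pseudogene Gm19287 and the noncoding gene Gm32644, and Txndc2 overlaps the noncoding gene Gm35477. Gpat2 overlaps no gene, and the nearest edge of Fahd2a, which lies on the minus strand, is 122 bases beyond it. Neither the overlapping genes nor the nearest genes on either side are analysed here. Gpc2 lies on the strand opposite to Stag3, and Gm35477 on the strand opposite to Txndc2. No label says whether counting used strand, so reads from where these genes overlap cannot be told apart. The strands of Gal3st4, Gm19287 and Gm32644 were not available here, and overlap of exons was not examined. Exon lengths were not used here, so levels of the 4 genes are not compared with each other. All 48 member values were whole reads (tolerance 0.005 reads).

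Stag3, the cohesin subunit, was seen almost only in SENS libraries. In NEO it had 97.7 CPM in replicate 1, from 1 read, and 0 in replicates 2 to 6. In SENS it had 1856, 706, 675, 0, 914 and 328 CPM in replicates 1 to 6, from 16, 11, 9, 0, 11 and 6 reads. The groups overlapped only through SENS 4, the one SENS library without a read, whose limit of 3 reads was 279 CPM. Mean levels were 16.3 ± 39.9 CPM (NEO) and 746 ± 632 CPM (SENS), with SD over n = 6 each. Pooled over libraries, 53 of 78626 reads in SENS against 1 of 51054 in NEO gave a ratio of 34.4, with an exact 95% counting interval of 5.92 to 1385 that leaves out the spread between libraries. Without SENS 1, the library with most of the spermatid reads, 37 reads in 4 SENS libraries remained and the ratio was 27.0. In SENS 6, where the 20 other spermatid genes had 0 reads in all, Stag3 had 6 reads. Without NEO 1 the gene had 0 reads in NEO, and its pooled SENS level was at least 9.17-fold higher than the NEO limit. The 6 reads of SENS 6, the deepest library, gave a lower CPM than the 9 to 16 reads of the other SENS libraries with reads.

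Txndc2, the sperm thioredoxin, was seen only in SENS libraries, at a few reads each. In NEO it had 0 reads in all 6 libraries. In SENS it had 232, 128, 375, 372, 0 and 219 CPM in replicates 1 to 6, from 2, 2, 5, 4, 0 and 4 reads. The groups overlapped through SENS 5. No SENS value lay above 435 CPM, the highest level that 3 reads make in a single NEO library, and 3 of the 5 values above 0 lay below the lowest, 269 CPM. Most single NEO libraries at 0 thus could not be told from the SENS levels at this depth. The mean in SENS was 221 ± 144 CPM (SD, n = 6). Pooled, the 17 SENS reads gave a level 3.68 times the NEO limit of 3 reads over the group. With any 1 library left out it was between 2.88 and 4.34 times that limit. These values leave out the error of the SENS reads. Without SENS 1, 15 reads remained in 4 libraries. Txndc8, the other sperm thioredoxin gene in the table, had 6 reads, all in SENS 1, where Txndc2 had 2. Pdilt, a testis member of the wider thioredoxin family, had 6 reads in NEO 5 and 11 in SENS 1.

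M1ap, the meiotic recombination gene, was above 0 in every NEO library and in 3 SENS libraries. NEO replicates 1 to 6 had 97.7, 2873, 559, 4439, 1594 and 775 CPM, from 1, 32, 4, 35, 11 and 6 reads. SENS replicates 1 to 6 had 232, 1411, 750, 0, 0 and 0 CPM, from 2, 22, 10, 0, 0 and 0 reads. The groups overlapped, since SENS 1 to SENS 3 lay within the NEO range, and the values in NEO ran from 1 read in NEO 1 to 35 reads in NEO 4. Mean levels were 1723 ± 1650 CPM (NEO) and 399 ± 575 CPM (SENS), with SD over n = 6 each. Pooled, 89 NEO reads against 34 SENS reads made the NEO level 4.03 times the SENS level (exact 95% counting interval 2.69 to 6.17). SENS 2 held 22 of the 34 SENS reads, and without it the ratio was 9.16. Without SENS 1 the ratio was 3.81. M1ap was absent in SENS 6 at 18299 reads, where a count of 0 allows up to 164 CPM.

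Gpat2, the acyltransferase, showed no single direction. NEO replicates 1 to 6 had 97.7, 808, 559, 127, 580 and 2582 CPM, from 1, 9, 4, 1, 4 and 20 reads. SENS replicates 1 to 6 had 232, 770, 600, 93.1, 4734 and 0 CPM, from 2, 12, 8, 1, 57 and 0 reads. The groups overlapped, with 5 of the 6 SENS libraries at or below 770 CPM and 5 of the 6 NEO libraries at or below 808 CPM, and 1 library in each carried most of the reads: NEO 6 held 51.3% of those in NEO and SENS 5 held 71.3% of those in SENS. Mean levels were 792 ± 920 CPM (NEO) and 1071 ± 1819 CPM (SENS), with SD over n = 6 each, while the median was lower in SENS (416 CPM) than in NEO (569 CPM). The pooled SENS level was 1.33 times the NEO level (exact 95% counting interval 0.898 to 2.01). It was 0.452 times without SENS 5, 2.32 times without NEO 6 and 1.46 times without SENS 1.

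**Figure D2:**
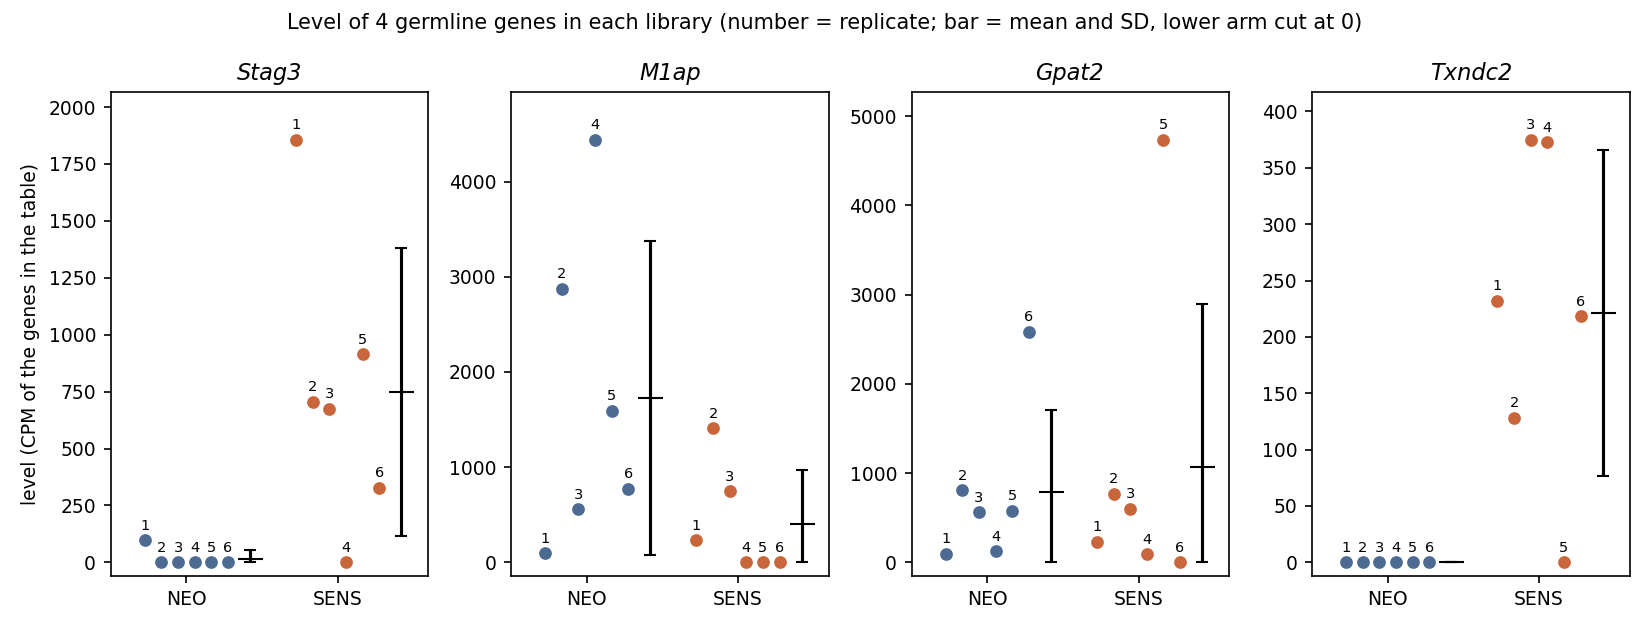
Level of each gene in CPM (vertical axis, linear, its own scale per gene) in the 6 NEO and 6 SENS libraries, with 1 point per library numbered by replicate and a bar for the mean and SD. Stag3 and Txndc2 have points above 0 in 5 SENS libraries each and in 1 and 0 NEO libraries, M1ap has its 4 SENS points nearest to 0 in replicates 1, 4, 5 and 6, and the Gpat2 mean of SENS rests on replicate 5.

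Fitted with limma, 0% of the 5141 genes tested (0 genes) passed an adjusted p of 0.05, and 189 had an unadjusted p below 0.05. The fitted log2 difference, SENS minus NEO on log2(CPM + 1), was 6.88 (SE 2.71) for Stag3, 6.63 (SE 2.58) for Txndc2, −5.29 (SE 1.71) for M1ap and −1.25 (SE 1.30) for Gpat2. The median over all genes was 0.39. Fitted differences of genes with libraries at 0 depend on the pseudocount and are not bounds: with a pseudocount of 100 CPM they were 2.45, 1.51, −2.10 and −0.23. For Gpat2 the fitted difference and the mean CPM had opposite signs.

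Counts over the 4 genes are given beside the same counts over all 5141 genes tested, and nothing is read from them, since the members were chosen with this contrast known. For 0 of the 4 genes the groups did not overlap, as for 0.0973% of all genes. The mean CPM was higher in SENS for 3 of the 4 genes, and for 55.2% of all genes. Stag3 and Txndc2 were above 0 in at least 5 SENS libraries and at most 1 NEO library, as were 0.506% of all genes. M1ap was above 0 in all 6 NEO libraries and at most 3 SENS libraries, as were 0.564%. The latter 2 patterns were written down after the members' values had been seen.

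**Figure D3:**
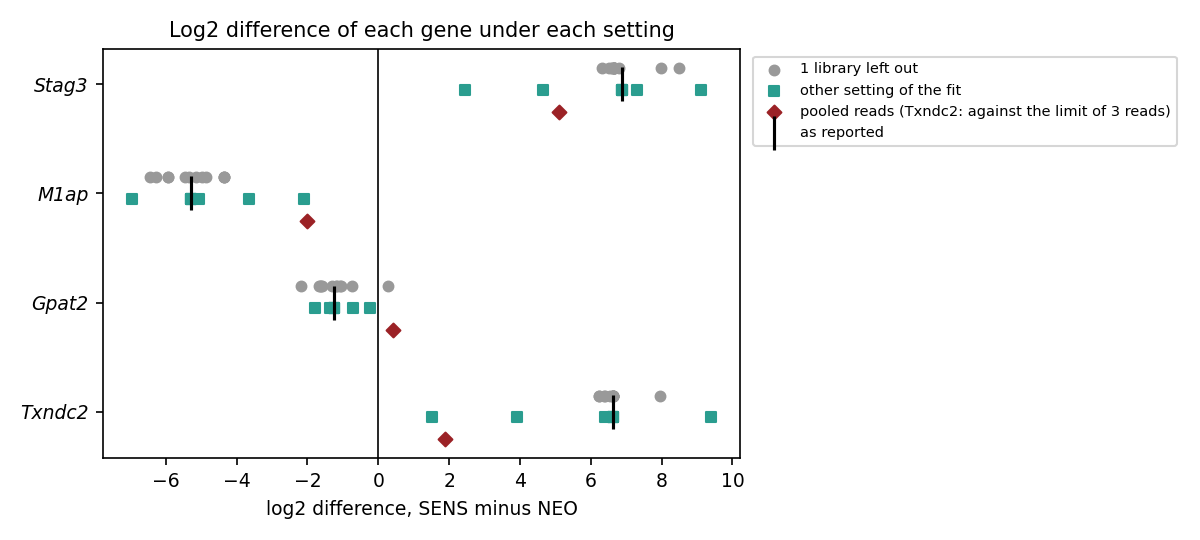
Log2 difference (SENS minus NEO, horizontal axis) of each gene as reported, with 1 library left out, under the other settings of the fit and from pooled reads. Stag3 and Txndc2 stay above 0 and M1ap below 0 under every setting drawn, while Gpat2 lies on both sides of 0.

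The numbers in the library labels fall into 3 ranges, 1046 to 1050 (1 library per group), 1062 to 1074 (3 per group) and 1103 to 1116 (2 per group), and the labels do not say what the numbers mean. Stag3 had more reads in SENS in each range, with 16 against 1, 20 against 0 and 17 against 0. Txndc2 had 2, 11 and 4 reads in SENS and 0 in NEO in the 3 ranges. Its pooled SENS level was above the NEO limit only in the middle range (2.42 times), and was 0.791 and 0.644 times the limit in the first and the last. M1ap had 71 NEO and 32 SENS reads in the middle range and 17 and 0 in the last, where the NEO level was the higher in both, but 1 and 2 in the first. The counts of Gpat2 in NEO and SENS were 1 and 2, 14 and 21, and 24 and 57, and the middle and last ratios were 0.990 and 1.15.

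The members did not follow one another from library to library. SENS 1, SENS 2 and SENS 3 had reads of all 4 genes, and every other library lacked 1 or 2 of them. Stag3 and Txndc2 were absent from different SENS libraries, SENS 4 and SENS 5. Pearson's r of log2(CPM + 1) over the 12 libraries was 0.53 between Stag3 and Txndc2, and −0.26 once the group means were subtracted. For M1ap and Gpat2 it was 0.39 and 0.34. Such values in sparse counts over libraries that differ in depth are descriptions only.

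The genes most like each member across the 12 libraries were taken by r among 1854 genes (1855 for Txndc2) with at least 20 reads and values above 0 in at least 4 libraries. For Stag3 they were the small heat shock protein gene Hspb2 (r = 0.95, 2 reads in NEO and 58 in SENS), Tspo2 (0.95, 8 and 32) and E330013P04Rik (0.93, 4 and 62). Like Stag3, each of these genes was above 0 in NEO 1 alone among the NEO libraries and absent from SENS 4 alone among the SENS libraries. With group means subtracted, r was 0.91, 0.92 and 0.88. For M1ap they were Ddias (0.87), Gm13315 (0.86) and AA467197 (0.82), for Gpat2 Gm20757 (0.91), E130006D01Rik (0.91) and Slc25a43 (0.87), and for Txndc2 Ms4a4a (0.87), A930003A15Rik (0.85) and the melanocortin 5 receptor gene Mc5r (0.80). Other genes then ranked first for M1ap (Alox12, 0.88) and for Txndc2 (Mhrt, 0.96, against 0.06 before subtraction), and the named genes held ranks 7 to 13 for M1ap and 8 to 10 for Txndc2. With group means subtracted the r of the named genes lay lower for the genes like M1ap (0.75 to 0.79) and Txndc2 (0.70 to 0.74) than for those like Gpat2 (0.88 to 0.92). No list gene of meiosis or of spermatids was among the 12. Many list genes had too few reads or libraries to enter the search, among them Prm2, Tnp1, Tnp2 and Ldhc. Nothing is therefore read from their absence.

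Other genes of the members' pathways were taken from 8 lists of 199 genes, of which the table held 75. Apart from the 4 members, 66 of them were above 0 and entered the fit. None was called in either direction by limma (0 at an adjusted p under 0.05 and 0 at an unadjusted p under 0.05, against 3.68% of all genes at the latter). By the fitted log2 difference, values were higher in SENS for 47 (71.2%, against 57.0% of all genes tested) and lower for 19. The median log2 difference was 0.82, against 0.39 over all genes. Without SENS 1, 52 of these genes could be fitted, and 26 had higher and 26 lower values in SENS. Their median was 0.04, against 0.32 over all genes, of which 55.9% had higher values in SENS.

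In the reads given below for these genes, NEO comes first. SENS libraries held more reads in all, so an equal level gives more reads in SENS.

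From the list of meiotic cohesin and its protectors, the table held the subunit gene Smc1b and the shugoshin genes Sgo1 and Sgo2b. Shugoshins protect cohesin. Smc1b reads numbered 33 over 3 libraries of NEO and 36 over 5 of SENS, with mean levels (± SD, n = 6 each) of 598 ± 710 and 506 ± 497 CPM. Sgo1 had 36 and 47.5 reads in 5 NEO and 4 SENS libraries. Sgo2b had 1 and 13 reads, and Meikin, listed with them, had none. By the fitted log2 difference, values were higher in SENS for 2 of these 3 genes with reads, with and without SENS 1. Over all genes the shares were 57.0% and 55.9%. None was called (0 genes). For Smc1b the fitted difference was 2.25 though its mean CPM was lower in SENS. The mean CPM of Sgo1 was also lower in SENS (685 in NEO and 639 in SENS). Smc1b, the meiosis-specific partner of Stag3 in the cohesin ring, thus had reads in NEO 1, NEO 2 and NEO 5, of which only NEO 1 had a read of Stag3. Sgo1 and Sgo2b carried fractional reads, as did Majin, Piwil4 and Gtsf1l below. The values of these genes are uncertain where they share reads with related copies.

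Genes of the chromosome axis and synaptonemal complex, the protein zipper between paired chromosomes, were 9 in number and held 44.5 reads in NEO and 75 in SENS. Tex12, a part of the central element, had 15 and 29 reads, the telomere attachment genes Majin and Terb2 had 19.5 and 17, and 0 and 10, and the axis gene Hormad2 had 0 and 13. Values were higher in SENS for 7 of the 9 genes (57.0% of all genes). Without SENS 1 they were higher for 3 of 7 fitted (55.9% of all genes). The transverse filament gene Sycp1 had 2 reads, both in SENS 1.

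Of 9 genes of meiotic recombination other than M1ap, values were higher in SENS for 6 (66.7%, against 57.0% of all genes tested) and lower for 3, and 0 were called. Without SENS 1 the counts were 6 and 2 of 8. Tex11, the partner of M1ap in crossover formation, had 12 NEO and 73 SENS reads, and SENS 6 alone held 49. Msh4, the crossover factor, had 17 and 22 reads over 5 libraries of each group, with means of 366 CPM in NEO and 283 CPM in SENS. Its partner Msh5 had 12 reads in NEO and 3 in SENS. Rnf212, another crossover gene, had 3 reads in NEO, all in NEO 5, and 0 in SENS. In the other direction, Ankrd31 had 4 and 12 reads, Meiob had 3 and 8, and Ccnb1ip1 had 0 and 1. Spo11, which makes the meiotic breaks, had 12 and 19 reads, with means of 267 and 228 CPM, and Mei1, needed for those breaks, had 1 and 28 reads, 16 of them in SENS 2.

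Among 11 germline piRNA pathway genes other than Gpat2, values were higher in SENS for 5 and lower for 6. Over all genes tested, 57.0% had higher values in SENS. None of the 11 was called (0 genes). Without SENS 1 the counts were 5 and 5. Fkbp6, a chaperone partner of the pathway, had 67 NEO reads (45 from NEO 1) and 28 SENS reads. Rnf17 had 41 in each group, the PIWI protein gene Piwil4 had 37 and 34.2, and Gtsf1l had 10 and 41.5, of which SENS 6 held 32. In SENS 5 and NEO 6, the libraries with most reads of Gpat2, Rnf17 had 16 and 0 reads, Piwil4 had 6 and 0, Gtsf1l had 3.5 and 3, Mael had 0 and 3, and Fkbp6 had 0 in both. Of the glycerolipid acyltransferases the table held, apart from Gpat2, Mogat2 with 1 read, in NEO.

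Genes of entry into meiosis and of germ cell identity numbered 11 with reads. Values were higher in SENS for 7 (63.6%, against 57.0% of all genes) and lower for 4 (6 and 4 without SENS 1). Meioc, which prolongs meiotic prophase, was above 0 in all 12 libraries (26 and 59 reads). The egg coat genes Zp1 and Zp2 had 47 and 37, and 1 and 38 reads, the last all in SENS 6, and Taf7l had 13 and 21.

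SENS 1 held 65.3% of the reads of the spermatid and sperm tail genes, and 73.9% of those of the other thioredoxin family genes (17 of 23). In the meiotic lists without the members its share was 5.22% (recombination), 7.91% (entry into meiosis), 13.8% (synaptonemal complex) and 15.3% (cohesin). In the piRNA list it was 10.6%. Apart from Txndc2, 20 spermatid and sperm tail genes had 62 reads in NEO and 307 in SENS. Values were higher in SENS for 18 (90%, against 57.0% of all genes) and lower for 2 (median log2 difference 1.09). Without SENS 1, 66 SENS reads remained and 12 genes could be fitted. Values were then higher for 4 (33.3%, against 55.9% of all genes) and lower for 8 (median −0.80). Their summed level was 359 to 2029 CPM in the NEO libraries, 27960 CPM in SENS 1 and 0 to 1862 CPM in the other 5 SENS libraries. Of the 12 listed germ cell markers the table held 7, with summed levels of 0 to 684 CPM in NEO, 19491 CPM in SENS 1 and 54.6 to 375 CPM in the other SENS libraries. Prm2, Tnp1 and Tnp2 were at 0 in SENS 2 to SENS 6. Stag3 had 37 and Txndc2 15 reads in these 5 libraries. The share that the source of the spermatid reads had in the 16 Stag3 reads of SENS 1 was not tested.

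**Figure D4:**
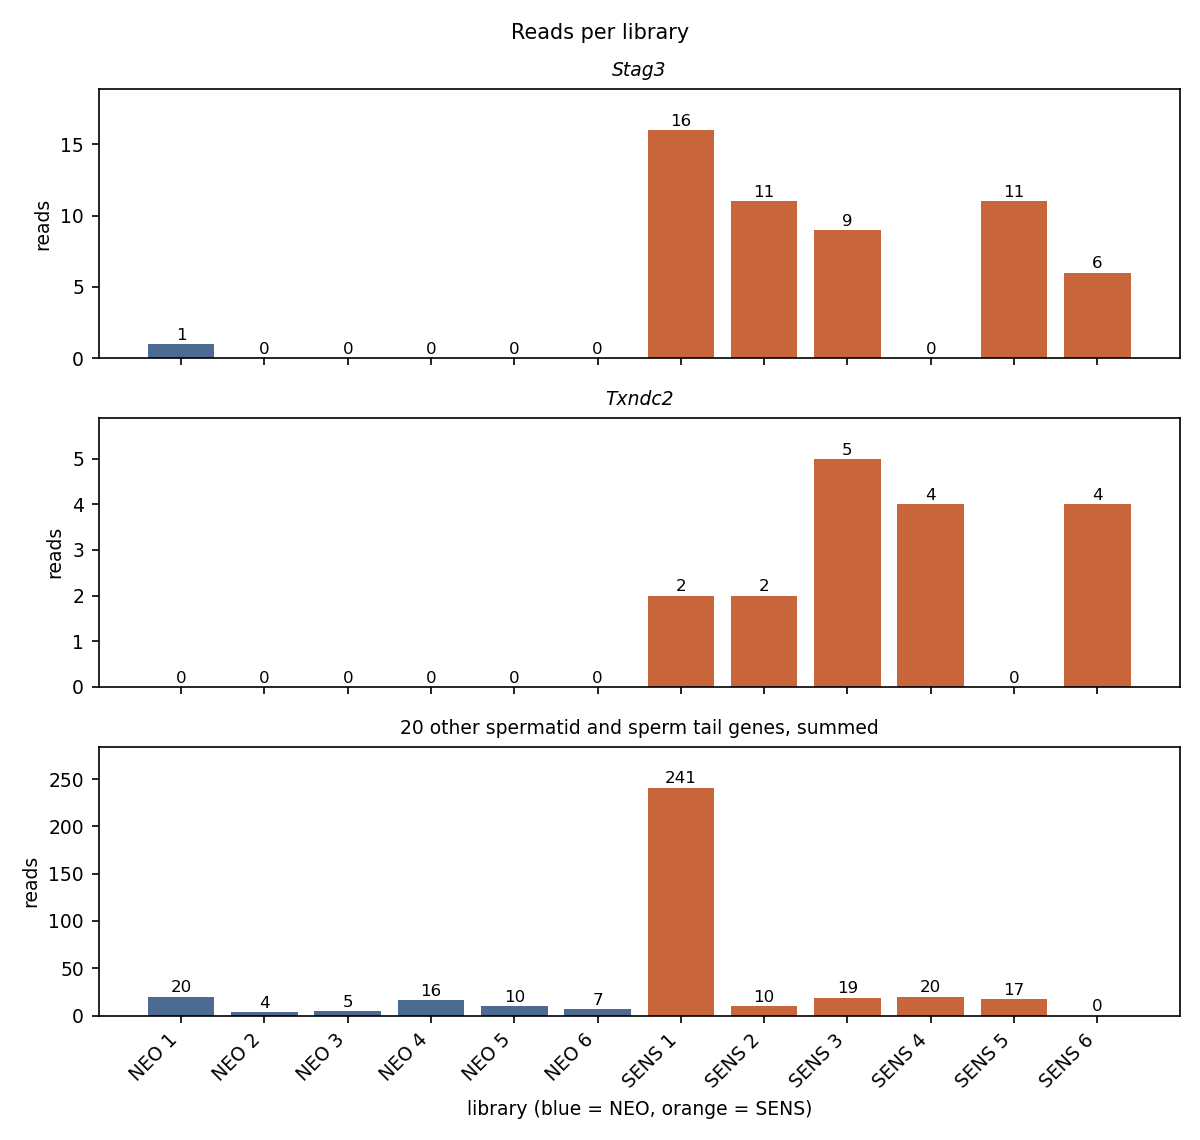
Reads of Stag3, of Txndc2 and of 20 other spermatid and sperm tail genes, summed (vertical axes, linear, 1 panel each), in each NEO (blue) and SENS (orange) library. The 20 genes peak at 241 reads in SENS 1 against at most 20 elsewhere, while Stag3 and Txndc2 are spread over 5 SENS libraries each.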

How the data were processed

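The authors deposited 1 table of CPM for 12 libraries, from cDNA amplified from 0.5 ng of ribosome-bound RNA per the labels' protocols. Per the submitters' processing notes, the tools included FastQC, HISAT2, featureCounts and edgeR and the builds GRCm38 and mm10, with no version or role. How genes were filtered and how strand and multi-mapping reads were handled is not stated there. The most frequent value above 0 in a column was taken as 1 read. On that scale 81.2% of values above 0 were whole (tolerance 0.005 reads), so no count model was fitted. Reads in the table cover these genes only, and library depth is unknown.

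SENS and NEO were compared with limma 3.58.1 in R 4.3.3 (variance trend, two-sided) on log2(CPM + 1) for genes averaging 1 CPM or more, with Benjamini-Hochberg adjustment over all genes and no covariate. The fit was tested on simulated data. Intervals are exact (Clopper-Pearson, 95%). Members and lists were chosen with earlier results of these data known. Named genes were the members, up to 4 genes per pathway list with the most reads, the 3 genes most like each member, and overlapping or neighbouring genes; further genes of a list were named after their values were seen. Exon lengths and protein sequences were not used here. Alternatives were other pseudocounts, filters, quantile scaling, blocks, no variance trend and each library left out. Same-numbered libraries of the 2 groups were not treated as pairs.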

Additional observations from a re-analysis of the deposited data

Results flagged for a closer look

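In groups of 6 libraries, 3 values of the members lay far from the nearest other value of their group by Dixon's criterion. The 7 groups with values were examined. Chance marks about 1 in 20 only where values are normally distributed, which such sparse counts are not, so the flags are descriptions. Stag3 had 97.7 CPM in NEO 1, from 1 read, with the other 5 NEO libraries at 0. With 5 values at 0 any single read meets this criterion, and 97.7 CPM is below the level of 3 reads in every NEO library, so it does not set NEO 1 apart. Gpat2 had 2582 CPM in NEO 6, from 20 reads (gap 0.714 of the range), and 4734 CPM in SENS 5, from 57 reads (0.837 of the range).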

How the results depend on the processing

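All 21 alternative fits called 0 genes, with smallest adjusted p-values from limma between 0.177 and 0.813 and 132 to 249 genes at an unadjusted p under 0.05. The log2 difference of Gpat2 ranged from −2.17 (without SENS 5) to 0.27 (without SENS 6) with 1 library left out, and was 0.41 from pooled reads. Those of Stag3 (2.45 to 9.10), Txndc2 (1.51 to 9.39) and M1ap (−6.95 to −2.01) kept their sign in all 22 alternatives each. Without SENS 1, chosen after seeing the data, values were higher in SENS for 4 spermatid genes in place of 18, for 3 synaptonemal complex genes in place of 7 and for 0 thioredoxin family genes in place of 2, partly because fewer genes could be fitted. A replicate block called 0 genes. Same-numbered libraries of the 2 groups also fell into the same range of label numbers. Correlations of their deviations from the group means lay between −0.03 and 0.08. Only 1 of 6 NEO libraries correlated best with its own number. In counts this sparse, such values cannot decide whether the libraries were paired or handled together. A count of 0 in 1 NEO library limits Txndc2 only to 269 to 435 CPM.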

Other observations

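Other tissue-restricted genes, chosen after their values were seen, had most of their reads in 1 library. The pituitary hormone genes Prl and Gh had 52 of 53 and 33 of 36 reads in SENS 4, a library without reads of Stag3 or M1ap. Of the other pituitary hormone genes, Lhb and Tshb were spread more widely, over 12 and 8 libraries. They had their most reads in SENS 6 (21 of 68) and SENS 3 (31 of 61). Fshb was not, with 10 reads in 1 NEO library (NEO 3) and 10 in 1 SENS library. Zp2, which encodes a protein of the egg coat, had 38 of 39 reads in SENS 6, where M1ap and Gpat2 had none. Mael, a gene of the germline piRNA pathway, had 17 of 24 reads in SENS 2, where Stag3 had 11.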
